A study of Homo sapiens with 4 samples.

Results

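PHOX2A, HAND1, HAND2, GATA2, GATA3, ISL1, TFAP2B and INSM1 are transcription factor genes of the sympathoadrenal lineage, the neural crest branch that forms sympathetic neurons and adrenal chromaffin cells. They were taken by name, and all 8 were found among the 23576 rows of the expression table. RNA was sequenced from SH-SY5Y, a human neuroblastoma cell line of this lineage, in 2 libraries of undifferentiated cells on day 0 and 2 libraries of differentiated cells on day 16. Undifferentiated cells were kept in medium with 10% serum. Differentiated cells had 7 days of retinoic acid at 10 µM in 5% serum, and then 9 days of BDNF, the brain-derived neurotrophic factor, at 20 ng/mL with no serum. Retinoic acid, BDNF, serum and time therefore differ together between the groups, and their parts cannot be told apart. The comparison of these groups is the one the study was set up for.

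In the embryo, bone morphogenetic proteins from the dorsal aorta switch on a set of factors in migrating neural crest cells, which then activate one another and the genes of noradrenaline synthesis. In neuroblastoma several of these factors stay on together and occupy each other's enhancers, an arrangement called a core regulatory circuit. PHOX2A and ISL1 carry a homeodomain, HAND1 and HAND2 are basic helix-loop-helix proteins that bind E-box DNA with a partner, GATA2 and GATA3 are zinc finger proteins that bind GATA sites, TFAP2B is an AP-2 protein, and INSM1 is a zinc finger repressor.

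Promoter sequences are printed for 5 of the factors that the results turn on, to show which start sites hold the core of a GATA site. They come from RefSeq on GRCh38.p14 and run from 250 bases before to 50 bases after a listed start, 5′ to 3′ on the gene's strand. Of the 8 genes, 7 had a window, with 13 windows in all because GATA2 had 2 listed starts and GATA3 had 6. Capitals mark GATAA or its reverse complement TTATC, the core of a GATA site.
HAND2, chr4:173530180-173530479, minus strand: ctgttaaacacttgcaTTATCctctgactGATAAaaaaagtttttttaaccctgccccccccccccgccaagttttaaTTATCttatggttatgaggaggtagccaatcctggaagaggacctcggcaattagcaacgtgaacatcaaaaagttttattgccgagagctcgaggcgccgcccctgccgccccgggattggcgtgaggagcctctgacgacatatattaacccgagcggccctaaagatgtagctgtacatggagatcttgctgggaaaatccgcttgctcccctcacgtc
HAND1, chr5:154478178-154478477, minus strand: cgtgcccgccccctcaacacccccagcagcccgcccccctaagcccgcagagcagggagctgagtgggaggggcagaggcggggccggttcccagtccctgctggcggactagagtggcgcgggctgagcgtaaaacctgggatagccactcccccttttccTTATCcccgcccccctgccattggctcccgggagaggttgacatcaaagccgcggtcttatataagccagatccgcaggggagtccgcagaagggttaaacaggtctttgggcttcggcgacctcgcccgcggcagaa
ISL1, chr5:51383198-51383497, plus strand: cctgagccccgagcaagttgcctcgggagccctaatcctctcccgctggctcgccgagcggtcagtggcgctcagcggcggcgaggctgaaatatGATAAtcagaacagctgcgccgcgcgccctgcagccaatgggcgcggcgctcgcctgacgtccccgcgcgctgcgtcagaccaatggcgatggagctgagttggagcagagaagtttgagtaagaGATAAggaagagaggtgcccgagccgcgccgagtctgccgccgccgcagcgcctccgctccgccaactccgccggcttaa
GATA2, chr3:128493152-128493451, minus strand: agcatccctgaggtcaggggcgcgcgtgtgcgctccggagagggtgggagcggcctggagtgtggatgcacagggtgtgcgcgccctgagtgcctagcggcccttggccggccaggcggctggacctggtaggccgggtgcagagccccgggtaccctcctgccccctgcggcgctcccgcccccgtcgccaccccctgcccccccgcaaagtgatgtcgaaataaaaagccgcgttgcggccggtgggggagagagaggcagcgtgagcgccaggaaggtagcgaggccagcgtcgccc
TFAP2B, chr6:50818621-50818920, plus strand: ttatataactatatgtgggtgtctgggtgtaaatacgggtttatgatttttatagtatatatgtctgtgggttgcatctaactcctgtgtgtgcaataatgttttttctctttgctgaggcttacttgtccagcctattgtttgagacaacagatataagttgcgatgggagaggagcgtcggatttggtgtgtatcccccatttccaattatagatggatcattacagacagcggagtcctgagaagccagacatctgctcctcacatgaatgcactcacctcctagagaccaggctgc

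The HAND2 window held 3 matches, that of ISL1 held 2 and that of HAND1 held 1. Neither GATA2 window, nor those of TFAP2B and PHOX2A, held these letters, and 1 of the 6 GATA3 windows did. The motif was searched on both strands and was present in 4 of the 13 windows, against 22.7% of 35116 promoter windows of the same length. In HAND2, 3 bases of these matches also lay in TAATTA, a homeodomain core, which was found on both strands in 1 of the 13 windows and in 4.84% of all windows. The E-box CANNTG was in 7 of the 13 windows and in 68.7% of all. The AP-2 palindrome GCCNNNGGC was in 6 of the 13 windows, among them both GATA2 windows, 3 of GATA3 and that of HAND1, and in 23.2% of all. Base composition ranged widely, from 43.0% G and C in the TFAP2B window to 74.7% in 1 of the GATA3 windows, with a median of 58.7% over all windows. A match is a description of letters and not a binding site.

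Levels are FPKM, by definition a fragment count per transcript length and per total of mapped fragments, and so can be compared between genes. The library scaling behind the deposited values is not stated. The table gives 1 value per gene and group, so there is no spread between the libraries of a group, and the order of levels carries no error. HAND2, which is required in mouse for noradrenergic differentiation of sympathetic neurons, stood at 205 FPKM before and 136 FPKM after differentiation per the authors' deposited table. ISL1 followed with 45.2 and 35.5 FPKM, GATA2 with 38.5 and 5.34 FPKM, and PHOX2A with 30.0 and 22.9 FPKM per the authors' deposited table. HAND1 had 27.0 and 14.9 FPKM, TFAP2B 26.9 and 9.93 FPKM, and GATA3 19.0 and 5.43 FPKM per the authors' deposited table. In undifferentiated cells HAND2 thus lay far above the other factors, and 6 of them lay between 19.0 and 45.2 FPKM. GATA3 was the lowest of the 7 tested factors in undifferentiated cells. In differentiated cells GATA2 lay at the lower end beside GATA3, and HAND2, ISL1 and PHOX2A were the highest in the order.

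**Figure D1:**
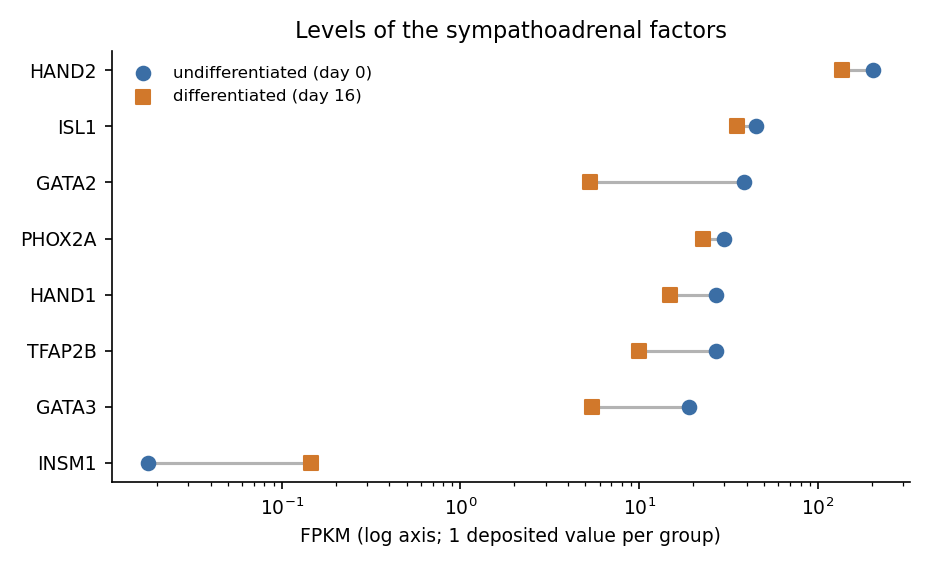
FPKM of the 8 factors on a log axis, with circles for undifferentiated and squares for differentiated cells, each 1 deposited value per group with no error. GATA2 went from 38.5 to 5.34 FPKM, HAND2 stood highest in both groups, and INSM1 stayed below 1 FPKM.

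INSM1, a repressor that sympathoadrenal progenitors need in mouse, was listed at 0.0178 FPKM before and 0.146 FPKM after differentiation and was not tested per the authors' deposited table. Among 376 olfactory receptor genes, which this cell line is not known for, the mean was 0.00506 and 0.0726 FPKM and the 95th percentile 0.0336 and 0.265 FPKM per the authors' deposited table. INSM1 therefore lay within the range of these genes in both groups, and no fold is read from it. Its relative INSM2 stood at 36.6 FPKM in undifferentiated cells and 13.3 FPKM in differentiated cells per the authors' deposited table, so nearly all of the summed FPKM of this pair belonged to INSM2 (98.9% in differentiated cells). INSM2 fell, with a log2 fold change of -1.46 and a q of 8.63e-06 per the authors' deposited table.

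Of the 7 tested factors, 5 were called lower at q below 0.05 and 0 higher per the authors' deposited table, where 31.4% of 11200 genes tested at a mean of 1 FPKM or more were called lower and 2.2% higher. None of these 7 had a positive fold, and at an unadjusted p under 0.05 the authors' test also gave 0 higher and 5 lower. With q below 0.01, 3 of the 5 calls remained, those of GATA2, GATA3 and TFAP2B. The median log2 fold change of the 7 was -0.86, beside -0.62 over 11169 genes, of which 84.0% were negative. Because the folds of all genes were not centred on 0, each fold was also compared with the median gene. This used a standard error read from the authors' statistic (the size of the fold over that of the statistic, called the implied standard error), a normal test and Benjamini-Hochberg adjustment over all 11169 genes. It is an approximation that rests on the authors' variance model with 2 libraries per group, and an exact test would need values per library, so its calls are given as counts and 95% intervals and its p-values are not printed. By that test 3 factors lay below the median gene, 0 above it and 4 did not lie apart from it, where 4.56% of all genes lay below and 5.64% above. Unadjusted, the counts of this test at p under 0.05 were also 3 and 0. Bulk RNA cannot tell fewer cells that express a factor from less RNA per cell.

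GATA2 had the largest fall of the 7. This zinc finger factor of sympathetic and blood progenitors (chromosome 3, 128198265 to 128212030, hg19) went from 38.5 to 5.34 FPKM per the authors' deposited table, a 7.22-fold fall. The log2 fold was -2.85 (implied standard error 0.335, with q listed at 0) per the authors' deposited table. Relative to the median gene it was -2.23 (95% interval -2.89 to -1.57). Only 0.457% of the 11169 genes had a more negative fold. Among genes above 0 FPKM other than small RNAs, its rank by level went from 1509 to 5634 of 19133.

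GATA3, which mouse sympathetic neurons need for survival and catecholamine synthesis, fell 3.49-fold (chromosome 10, 8096667 to 8117164, hg19). The log2 fold was -1.80 (implied standard error 0.367, q = 2.13e-05) per the authors' deposited table. Relative to the median gene it was -1.18 (95% interval -1.90 to -0.46). GATA2 fell further than its relative GATA3, by -1.05 on the log2 scale with a 95% interval of -2.02 to -0.07. This difference does not depend on a common scaling of the libraries. The FPKM of GATA2 was 2.03 times that of GATA3 in undifferentiated cells and 0.983 times in differentiated cells. The 6 GATA genes together went from 62.5 to 12.8 FPKM. GATA4, a heart and gut member of the family, was the next most abundant at 5.03 and 1.80 FPKM and was called lower (q = 0.00714) per the authors' deposited table. GATA1 was listed at 0 in both groups and GATA6 at 0 and 0.0432 FPKM per the authors' deposited table.

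TFAP2B, which acts in noradrenergic neuron differentiation in mouse, fell 2.70-fold (chromosome 6, 50786439 to 50815326, hg19). The log2 fold was -1.43 (implied standard error 0.257, q = 1.06e-06) per the authors' deposited table. Relative to the median gene it was -0.81 (95% interval -1.32 to -0.31). That call was lost when genes of like expression gave the median, and when the summed FPKM was made equal. TFAP2B held 99.5% of the summed FPKM of the 5 AP-2 genes in undifferentiated and 97.2% in differentiated cells. TFAP2A, an AP-2 gene of early neural crest and skin, stood at 0.0903 and 0.0288 FPKM per the authors' deposited table. None of the other 4 AP-2 genes exceeded 0.157 FPKM in either group per the authors' deposited table.

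**Figure D2:**
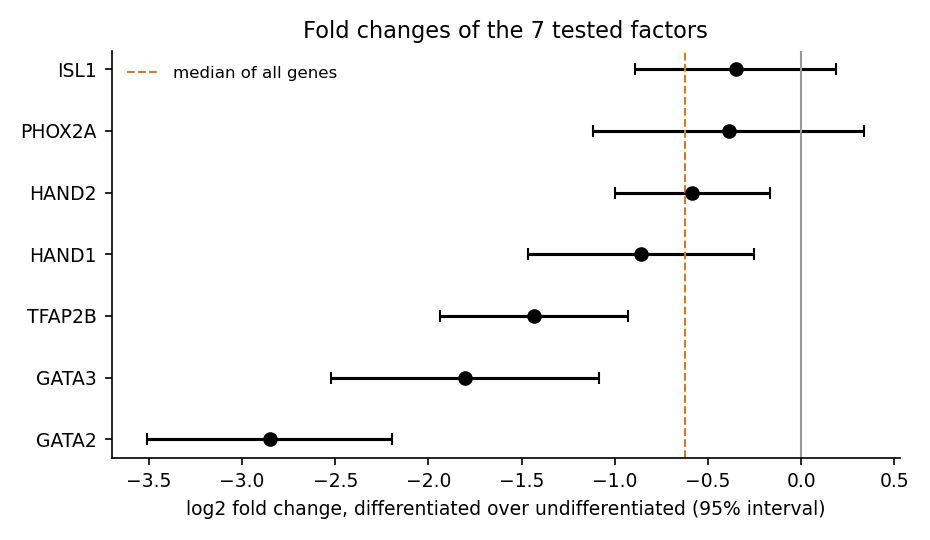
Log2 fold change of the 7 tested factors, differentiated over undifferentiated, with 95% intervals from the implied standard error. The dashed line marks the median gene at -0.62, and the intervals of GATA2, GATA3 and TFAP2B lie to its left.

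HAND1 and HAND2 were called lower with smaller folds, and neither lay apart from the median gene. HAND1 (chromosome 5, 153854532 to 153857824, hg19) had a log2 fold of -0.86 (implied standard error 0.310, q = 0.0227) per the authors' deposited table. HAND2 (chromosome 4, 174447652 to 174451378, hg19) had a log2 fold of -0.58 (implied standard error 0.213, q = 0.0242) per the authors' deposited table, and its sign turned to 0.19, 0.20 and 0.06 with quantile normalization, equal summed FPKM and upper quartile scaling. Relative to the median gene HAND1 was at -0.24 (95% interval -0.85 to 0.37) and HAND2 at 0.04 (95% interval -0.38 to 0.45). The folds of the pair differed by -0.28, HAND1 less HAND2, with a 95% interval of -1.01 to 0.46. HAND2 made up 88.3% of the summed HAND FPKM before and 90.2% after differentiation. Of 21 genes related to the 8 factors, 6 passed the filter of a mean of at least 1 FPKM, and 14 stood under 0.5 FPKM in both groups. Of the 6, 3 were called lower and 0 higher per the authors' deposited table (31.4% and 2.2% of all genes), with 1 higher at an unadjusted p under 0.05. Among them TWIST1, a helix-loop-helix gene whose protein can pair with the same partners, fell from 104 to 37.0 FPKM per the authors' deposited table. The HAND2 fold was above that of TWIST1 by 0.90 on the log2 scale (95% interval 0.25 to 1.56).

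PHOX2A and ISL1 were the tested factors not called per the authors' deposited table. PHOX2A, a homeodomain activator of the dopamine β-hydroxylase gene (chromosome 11, 71935882 to 71955220, hg19), had a log2 fold of -0.39 (implied standard error 0.372, q = 0.447) per the authors' deposited table. ISL1, a LIM homeodomain factor needed for sympathetic neuron formation in mouse (chromosome 5, 50668571 to 50690563, hg19), had one of -0.35 (implied standard error 0.275, q = 0.342) per the authors' deposited table. Both folds took a positive sign under quantile normalization, equal summed FPKM and upper quartile scaling, which raise log2 folds by a median of 0.60, by 0.78 and by 0.64. Their 95% intervals, -1.12 to 0.34 and -0.89 to 0.19, leave room for a fall of 1 log2 unit in PHOX2A and nearly as much in ISL1. ISL1 held 93.6% and 95.1% of the summed FPKM of ISL1 and ISL2. By rank among expressed genes, ISL1 went from 1273 to 1014 and PHOX2A from 1929 to 1595.

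**Figure D3:**
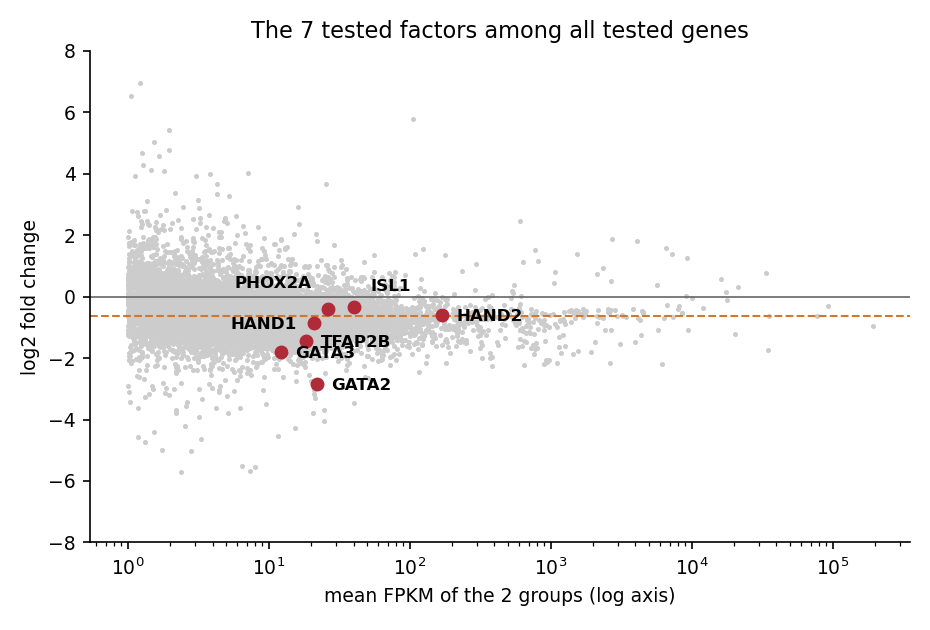
Log2 fold change against the mean FPKM of both groups for 11169 tested genes (grey), with the 7 tested factors in red. The dashed line is the median fold of -0.62; GATA2 lies near the lower edge of the cloud at -2.85, and HAND2 lies on the median at high expression.

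The factors did not move by a common fold. Of 21 pairs of tested factors, 13 had a 95% interval of the difference in log2 fold that left out 0; these intervals are not adjusted for the number of pairs and treat the errors of both genes as independent. GATA2 differed in this way from each of the other 6 factors. GATA3 and TFAP2B each did so from HAND2, PHOX2A and ISL1. The difference between GATA3 and HAND1 was -0.94 (95% interval -1.88 to -0.002), that between TFAP2B and HAND1 -0.57 (95% interval -1.36 to 0.22), and that between GATA3 and TFAP2B -0.37 (95% interval -1.25 to 0.51). None of the 6 pairs among HAND1, HAND2, PHOX2A and ISL1 had an interval that left out 0. The widest of these intervals, for HAND1 less PHOX2A, ran from -1.42 to 0.48. As a share of the summed FPKM of all 8 factors, GATA2 went from 9.85% to 2.32% and GATA3 from 4.85% to 2.36%. HAND2 went from 52.3% to 59.2%, ISL1 from 11.6% to 15.4% and PHOX2A from 7.66% to 9.92%. The sum itself went from 391 to 231 FPKM.

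Rows beside the factors were examined because fragments there may be shared. NBLA00301, listed by RefSeq as HAND2-AS1, a long non-coding RNA on the opposite strand, starts 230 bases beyond the HAND2 locus in the table. It was abundant, at 145 and 67.1 FPKM, and was called lower with a log2 fold change of -1.11 (q = 0.000748) per the authors' deposited table. The HAND2 fold exceeded it by 0.52, with a 95% interval of -0.16 to 1.21. FLJ45983, which ends before the GATA3 locus, had a log2 fold of -1.13 (q = 0.0556) per the authors' deposited table. LOC642366, listed by RefSeq under the same gene number as ISL1-DT, is given the same locus as ISL1 and stood at 7.71 and 6.57 FPKM (q = 0.710) per the authors' deposited table. INPPL1, a lipid phosphatase gene, is given the same locus as PHOX2A and stood at 6.36 and 5.08 FPKM (q = 0.556) per the authors' deposited table. Whether fragments were counted by strand is not given in the sources used here, so the values of PHOX2A, ISL1 and HAND2 and of these rows are uncertain to that extent. In all, 21 rows lay within 100 kb of a factor, of which 13 were tested, 4 were called lower and 0 higher per the authors' deposited table (0 higher at an unadjusted p under 0.05 among the 12 with a mean of at least 1 FPKM). That is near the share over all genes, of which 31.4% were called lower and 2.2% higher. None of the 4 lower rows lay apart from the median gene. Besides NBLA00301 the lower rows were CLPB near PHOX2A (-1.30), and CRNKL1 (-0.77) and RALGAPA2 (-0.86) near INSM1, as log2 fold changes per the authors' deposited table; that of CRNKL1 was 0.01 with equal summed FPKM. No tested row within 100 kb of GATA2, GATA3, ISL1 or HAND1 was called per the authors' deposited table, and no row that near TFAP2B was tested.

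**Figure D4:**
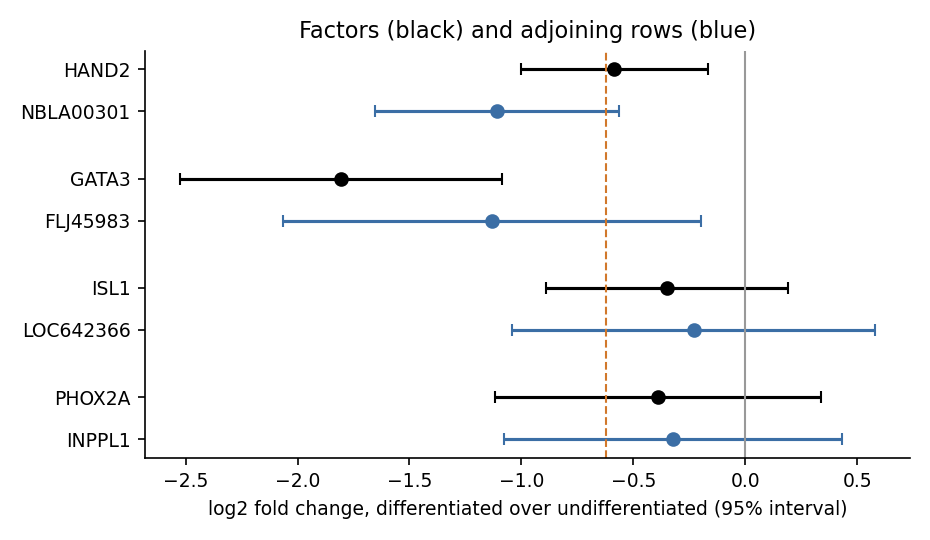
Log2 fold changes with 95% intervals for 4 factors (black) and an adjoining row each (blue); the dashed line is the median gene. In each pair the intervals overlap, with NBLA00301 at -1.11 beside HAND2 at -0.58.

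Other genes of the network were read from lists chosen with earlier results of these data known. Of 20 other transcription factors of the neuroblastoma circuit, 16 passed the filter. Of these, 8 were called lower and 0 higher per the authors' deposited table (31.4% and 2.2% of all genes), with 1 higher at an unadjusted p under 0.05. By the test against the median gene 5 lay below and 1 above (4.56% and 5.64% of all genes). The median log2 fold change was -0.82. The T-box genes TBX3 (15.8 to 2.58 FPKM) and TBX2 (19.4 to 5.05 FPKM), and SIX3 (6.15 to 0.604 FPKM), a forebrain and eye homeodomain gene, fell per the authors' deposited table; SIX3 passed the filter only through the undifferentiated group. The pattern nearest to that of GATA3 among the tested genes of all lists was that of TBX2, at a distance of 0.109 in the log2 levels of the 2 groups. By the same measure the nearest to GATA2 was the noradrenaline transporter gene SLC6A2 (0.623), to TFAP2B the deacetylase gene HDAC1 (0.128), to HAND2 the dopa decarboxylase gene DDC (0.252), to HAND1 the vesicular monoamine transporter gene SLC18A1 (0.307) and to ISL1 the galanin gene GAL (0.156). With only 2 group values, this says no more than that levels and folds were alike.

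Of 25 genes whose proteins bind or work with these factors, 18 passed the filter. Of these, 15 were called lower and 0 higher per the authors' deposited table (31.4% and 2.2% of all genes), with 0 higher at an unadjusted p under 0.05. Only 3 lay below and 0 above the median gene (4.56% and 5.64% of all genes), and the list median was -1.02. With q below 0.01, 9 were called lower. The E-protein gene TCF12, a partner of HAND proteins, fell from 47.2 to 16.0 FPKM per the authors' deposited table, and the HAND2 fold was above its fold by 0.97 on the log2 scale (95% interval 0.32 to 1.63). LMO3, a LIM-only cofactor gene, fell from 14.2 to 3.29 FPKM, HDAC1, a histone deacetylase found in INSM1 repressor complexes, from 27.1 to 9.09 FPKM, and LDB2, a LIM domain binding protein gene, from 2.66 to 0.567 FPKM per the authors' deposited table. LDB2 passed the filter only through the undifferentiated group, so its call, 1 of the 15, supports nothing about the list.

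Of 11 inhibitors of helix-loop-helix factors, 8 passed the filter. Of these, 3 were called lower and 1 higher per the authors' deposited table (31.4% and 2.2% of all genes). Against the median gene 3 lay below and 3 above (4.56% and 5.64% of all genes). ID proteins bind E-proteins and keep them from partners such as HAND1 and HAND2. ID2, ID1 and ID3 fell, with log2 fold changes of -4.29, -3.78 and -3.09, and ID4 rose from 2.77 to 5.92 FPKM (q = 0.0117) per the authors' deposited table, a call that was lost with q below 0.01. The median of the list was 0.66, above 0, because 4 HES and HEY genes that were not called had positive folds, whereas the calls were mostly lower. The 3 above the median gene were ID4, HES6 and HEY1, while HES1 and HES4 did not lie apart from it. These HES and HEY genes are named after their values were seen.

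Of 13 genes for bone morphogenetic protein ligands, receptors and SMADs, which act upstream of the factors in the embryo, 11 passed the filter. Of these, 7 were called lower and 1 higher per the authors' deposited table (31.4% and 2.2% of all genes). Against the median gene 1 lay below and 1 above (4.56% and 5.64% of all genes). The median was -0.89. SMAD9, a signal transducer, fell from 27.4 to 7.14 FPKM, and the ligand gene BMP7 rose from 3.89 to 14.6 FPKM per the authors' deposited table. The feedback inhibitors SMAD6 (2.54 to 0.0948 FPKM) and SMAD7 (3.71 to 0.752 FPKM) were called lower per the authors' deposited table with large implied errors of 1.76 and 0.763, and neither lay apart from the median gene. Both passed the filter only through the undifferentiated group, so their calls and their share of the 7 support nothing about the list. With means of 5 FPKM or more 4 genes of the list were called lower, and with q below 0.01 3 were.

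A mixed list of catecholamine and sympathetic neuron genes, among them targets of these factors, lay on both sides of the median gene. Of 24 catecholamine and sympathetic neuron genes, 22 passed the filter. Of these, 9 were called lower and 1 higher per the authors' deposited table (31.4% and 2.2% of all genes). Against the median gene 4 lay below and 4 above (4.56% and 5.64% of all genes), and the list median was -0.39. DBH, a target of PHOX2A, HAND2 and GATA3, had a log2 fold of -2.10 per the authors' deposited table, beside -2.85 for GATA2 and -1.80 for GATA3. The GATA3 fold less that of DBH was 0.29 (95% interval -0.61 to 1.20) and the GATA2 fold less that of DBH -0.76 (95% interval -1.61 to 0.10). SLC6A2, the noradrenaline transporter gene, had the largest fall of the list, with a log2 fold of -3.68 per the authors' deposited table. CYB561, which supplies electrons to dopamine β-hydroxylase, and the granin gene CHGB also fell, at -2.64 and -1.28 per the authors' deposited table. DBH, SLC6A2, CYB561 and CHGB were the 4 below the median gene. SCG2, a granin gene, rose from 16.7 to 34.1 FPKM (q = 0.000242) per the authors' deposited table. MAOA, which encodes a monoamine oxidase, ELAVL3, a neuronal RNA-binding protein gene, and STMN2, a neuronal stathmin gene, were not called and lay above the median gene, with log2 folds of 0.64, 0.53 and -0.01 per the authors' deposited table. SCG2, MAOA, ELAVL3 and STMN2 were the 4 above the median gene and are named after their values were seen. TH was listed at 0 and 0.202 FPKM and was not tested per the authors' deposited table. Of 7 cholinergic genes, 5 passed the filter, with 3 called higher and 1 lower per the authors' deposited table (2.2% and 31.4% of all genes). Against the median gene 3 lay above and 1 below (5.64% and 4.56% of all genes), and the list median was 1.04. ACHE, which encodes acetylcholinesterase, SLC18A3, the vesicular acetylcholine transporter gene, and the nicotinic receptor gene CHRNA7 rose by 2.81, 1.55 and 1.04 on the log2 scale per the authors' deposited table, and PRIMA1 fell by 2.98. ACHE (0.470 to 3.29 FPKM) passed the filter only through the differentiated group and PRIMA1 (6.99 to 0.885 FPKM) only through the undifferentiated group per the authors' deposited table, so the counts and the median of this list support nothing about it. CHRNA7 was the one call higher that held with q below 0.01 and with means of 5 FPKM or more.

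The identity of the cells was checked with marker lists. Over all genes 31.4% were called lower and 2.2% higher, to be set beside the counts of each marker list. All 10 neuroblastoma markers were present, from 6.78 to 435 FPKM before and 3.13 to 357 FPKM after differentiation. DBH, CHGB, CHGA and NEFM were called lower and 0 higher per the authors' deposited table (2 higher at an unadjusted p under 0.05). The other 6 were not called. The list median was -0.08, with 3 markers above and 2 below the median gene (5.64% and 4.56% of all genes). Of 10 Schwann cell precursor and glial markers 2 passed the filter, and SOX10 and FOXD3, which define that lineage, were listed at 0 and 0.00602 FPKM and at 0 and 0.0218 FPKM per the authors' deposited table. The sum of this list went from 14.7 to 38.3 FPKM, with PMP22 (9.75 to 34.4 FPKM, called higher) and S100B (4.33 to 2.98 FPKM) per the authors' deposited table as its main parts. Of 15 mesenchymal state markers, 8 passed the filter, with 6 called lower and 0 higher per the authors' deposited table (0 higher at an unadjusted p under 0.05). Among them were FN1, NOTCH2, TWIST1 and ZEB2 with log2 folds of -2.14, -1.60, -1.49 and -1.23. Against the median gene 3 of the 8 lay below and 0 above. The sum of that list went from 357 to 153 FPKM, and PRRX1, which defines that state, was at 0 and 0.0214 FPKM per the authors' deposited table. Of 8 fibroblast markers, 5 passed the filter, with DCN, THY1 and PDGFRB called lower at -1.96, -1.14 and -0.95 and 0 higher per the authors' deposited table (0 at an unadjusted p under 0.05). The other 2, LUM and COL3A1, were not called, with log2 folds of 0.52 and 0.07 per the authors' deposited table. By the test against the median gene LUM was above and 0 of the 5 were below (1 below at an unadjusted p under 0.05). The summed level of the list went from 42.9 to 33.6 FPKM, and COL1A2 was listed at 0.0859 and 0 FPKM. The part of these markers in the folds of the 8 factors was not tested.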

How the data were processed

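RNA was sequenced by the submitters in 4 libraries after removal of ribosomal RNA. Reads were handled with TopHat2 2.0.8 and Cufflinks 2.0.2 on build hg19, per the submitters' processing notes. The annotation, the strand setting, the library scaling and how the libraries of a group were merged are not stated in those notes as used here. The authors deposited 1 FPKM per gene and group. Per the file headers, they also deposited a log2 fold change, a test score, and p-values with q-values. The statistic has the opposite sign to the fold in all 12729 rows used. Depth is unknown, and the labels do not say that the libraries came from separate cultures, so q-values may measure technical spread.

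Here the standard error of a fold was taken as its size over that of the statistic (median 0.362), and 95% intervals are 1.96 errors to each side. This inherits the authors' variance model. Rows with a date as name (28) were left out, and listed starts were raised by 1. The members and lists were chosen with earlier results of these data known. The rule named all 8 factors, up to 4 called genes with the largest fold per list and all rows within 100 kb of a factor, 66 genes in all; some are not reported here. Alternatives covered threshold, filter, pseudocount and scaling. Python 3.11.15, numpy 2.4.6, pandas 2.3.3, scipy 1.17.1 and matplotlib 3.10.9 were used.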

Additional observations from a re-analysis of the deposited data

How the results depend on the processing

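With q below 0.01 the count of factors called lower went from 5 to 3, and it stayed at 5 without the filter on low values and with means of 5 FPKM or more. The count below the median gene was 3 with the median over all tested rows, with equal summed FPKM without small RNAs and with the mean at 5 FPKM or more. It was 2 with the median of genes of like expression and with equal summed FPKM, where TFAP2B was lost. GATA2 and GATA3 were below it in all 5 settings, but with equal summed FPKM GATA3 lay only just inside the threshold. Of 71 called folds in the lists and neighbouring rows, 6 changed sign under a scaling. That of HAND2 took a positive sign with quantile normalization (0.188), equal summed FPKM (0.197) and upper quartile scaling (0.0565), and that of CRNKL1 with equal summed FPKM (0.0143). The others were DDC and NPY with all 3 scalings, CHRNA3 with quantile normalization and equal summed FPKM, and HDAC2 with equal summed FPKM. These scalings raise the median fold. With q below 0.01 the binding partners called lower went from 15 to 9, the BMP and SMAD genes from 7 to 3, the cholinergic genes called higher from 3 to 1 and the inhibitors called higher from 1 to 0. With means of 5 FPKM or more the BMP and SMAD genes called lower went to 4, the cholinergic genes to 1 higher and 0 lower, and the inhibitors to 0 higher. Without the filter 1 further circuit factor was called higher, EBF3 (0.322 to 1.23 FPKM, q = 0.0235 per the authors' deposited table), which is named here after its values were seen. Leaving out a replicate was not run, since the table holds no values per library. No paired analysis was possible because the table gives 1 value per group. Depth is unknown, so no detection floor is given for INSM1.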
